A study of Mus musculus with 6 samples.

Results

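The chemokine receptor genes Cx3cr1, Ccr1, Ccr3, Ccr7, Ccrl2 and Cxcr4 were examined in macrophages grown from mouse bone marrow. These 6 genes were selected by name from a list of receptors other than Ccr2, and each was found by its Entrez identifier among the 14574 genes listed in any library. The libraries came from 2 genotypes, Cd28 KO mice and C57BL/6J mice, called WT, aged 6 to 10 weeks, with 3 libraries per genotype numbered 1 to 3 in their titles. Femur marrow of both genotypes was cultured for 7 days in DMEM with 10% FCS, 2-ME and 25 ng/ml human M-CSF, the growth factor that drives macrophage formation, renewed every 2 days. No further treatment was given to either group. The sources used here do not give how the Cd28 allele was made, the sex of the mice or whether each number is a separate animal. The p-values therefore cover only the variation among these 6 libraries, part of which may be technical.

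Chemokine receptors are G protein-coupled receptors that steer leukocytes along gradients of small secreted proteins. Cxcr4 binds Cxcl12 and holds blood-forming cells and young leukocytes in the marrow. Cx3cr1 binds the membrane-bound chemokine Cx3cl1 and marks monocytes and many tissue macrophages. Ccr1 binds Ccl3, Ccl5 and related inflammatory chemokines, Ccr3 binds the eotaxins and is best known on eosinophils, and Ccr7 guides mature dendritic cells and lymphocytes to lymph nodes through Ccl19 and Ccl21. Ccrl2 is an atypical member that binds chemerin, the product of Rarres2, without classical G protein signalling, and in macrophages it is known as a gene induced by inflammatory stimuli.

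Values are FPKM, fragments per kilobase of a gene's transcript, scaled by the total mapped in that library, which allow levels to be compared between genes. Each library listed 12768 to 13327 genes, and the number of reads behind them is unknown. Cd28 itself stood at 25.7, 24.2 and 26.9 FPKM in the Cd28 KO libraries and at 38.2, 30.1 and 51.1 FPKM in the WT libraries (limma adjusted p = 0.9995, and 0.18 with the replicate number as a block). All 3 Cd28 KO values lay below the lowest WT value, and the gene was listed in all 6 libraries. Replicate 3 of each genotype separated from replicates 1 and 2 on principal component 1, which held 73.8% of the variance (34.8 in Cd28 KO and 36.1 in WT, against -18.2 to -17.4). Y-linked genes were listed in these libraries alone, 5 in each. The contrast of replicate 3 with the rest thus cannot be told apart from a difference in donor sex, which was not tested. Results are therefore given by replicate number.

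Of 8 macrophage markers, Cd68, Csf1r, Cd14 and Adgre1 each stood above 261 FPKM in every library, and Mertk was the lowest at 4.63 to 7.60 FPKM in Cd28 KO and 5.46 to 6.89 FPKM in WT. The sums of the 8 ranged from 4102 to 4325 FPKM in Cd28 KO and from 4282 to 4524 FPKM in WT. Eosinophil markers (5) summed to 1.49 to 2.39 FPKM in Cd28 KO and 2.38 to 3.41 FPKM in WT, mostly Siglecf, with Epx listed in 1 library. Prg2 was listed in no Cd28 KO library and stood at 0.13, 0.40 and 0.13 FPKM in WT. Il5ra, also near the floor, went the other way, with means of 0.117 FPKM in Cd28 KO and 0.08 FPKM in WT. Dendritic cell markers (9) summed to 3.70 to 6.27 FPKM in Cd28 KO and 3.48 to 7.62 FPKM in WT, with Flt3 and Zbtb46 at no more than 0.18 FPKM. Monocyte markers (7) summed to 60.9 to 110 FPKM in Cd28 KO and 49.0 to 94.8 FPKM in WT, with the high end set by Nr4a1 in replicate 3. The 4 tested monocyte markers, Ccr2, Plac8, Nr4a1 and Spn, all had positive log2 fold changes and 0 were called. Plac8 stood at 6.30, 7.24 and 9.44 FPKM in Cd28 KO and 2.63, 2.28 and 5.86 FPKM in WT, without overlap (limma adjusted p = 0.9995, and 0.054 with the replicate number as a block). It was 1 of the 4 in this respect, against 3.84% of all tested genes higher in Cd28 KO without overlap. The part of monocytes in the receptor values was not tested. In bulk libraries fewer cells that express a gene and less RNA of it per cell cannot be told apart.

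Cxcr4 was the most abundant of the 6 receptors in all 6 libraries. The order of the group means was Cxcr4, Cx3cr1, Ccrl2, Ccr7, Ccr1 and Ccr3 in Cd28 KO, and Cxcr4, Cx3cr1, Ccrl2, Ccr1, Ccr7 and Ccr3 in WT. The ranges of Cx3cr1 and Ccrl2 overlapped in both genotypes, as did those of Ccr1 and Ccr7, while the other neighbours in the order lay apart in every library. Cxcr4 alone made up 58.1%, 56.4% and 58.3% of the summed FPKM of 23 listed chemokine receptors in Cd28 KO replicates 1 to 3, and 53.8%, 49.7% and 58.4% in WT.

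**Figure D1:**
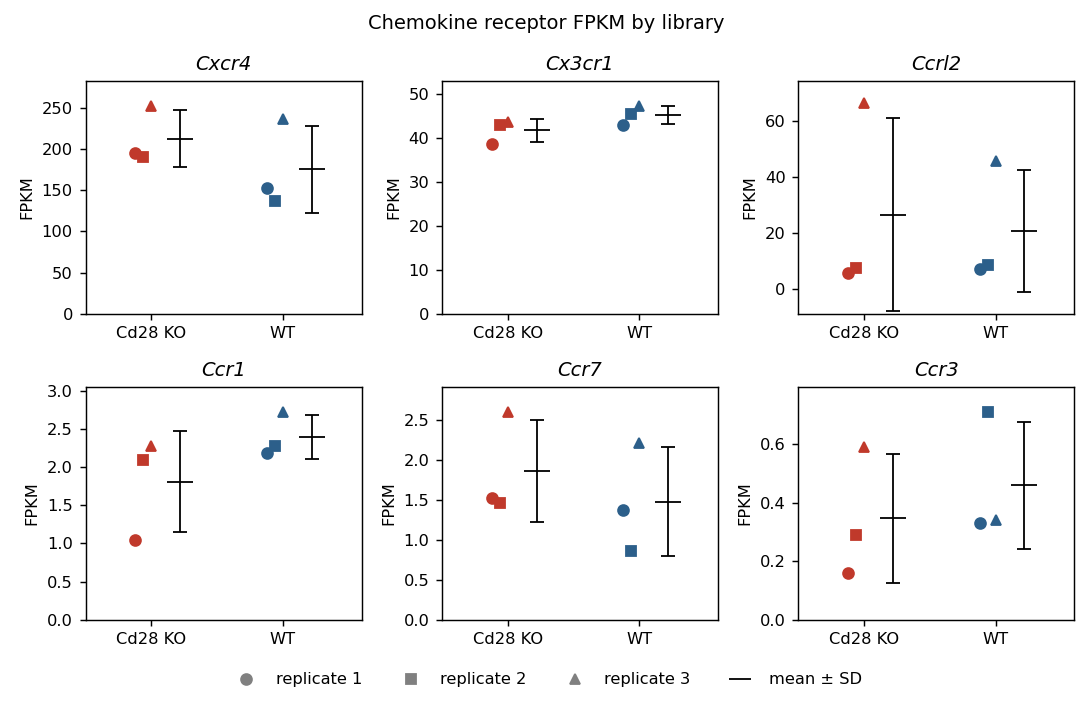
FPKM of each receptor (vertical axis, linear scale of its own per panel) in the Cd28 KO libraries and the WT libraries; the marker shape gives the replicate number and the black bar the mean ± SD of 3 libraries. No receptor separates the groups, and the replicate 3 libraries carry the high Ccrl2 values, 66.2 FPKM in Cd28 KO and 45.8 FPKM in WT.

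None of the receptors passed the genome-wide test for a difference between genotypes. The mean over the 6 libraries reached the minimum of 1 FPKM for 5 of the 6, all but Ccr3. limma, a linear model with a spread shared across genes, was fitted on log2(FPKM + 1) over 10172 genes, with calls made where the Benjamini-Hochberg adjusted p fell below 0.05. On this scale a fold change of a gene near 1 FPKM is understated. limma called 0 of the 5, against 0.0197% of tested genes called higher and 0% called lower in Cd28 KO. With the replicate number as a block it again called 0 of the 5, against 0.138% higher and 0.0393% lower. At an unadjusted p below 0.05, limma listed 253 genes without the block, none of them a member, and 803 genes (7.89%) with it, among them Cxcr4. The adjusted p was 0.9995 for each of the 5 without the block. The groups overlapped for all 5, while for 3.84% of tested genes all Cd28 KO values lay above all WT values and for 2.87% all lay below. Within replicate numbers, on FPKM as deposited, 2 of the 5 (Cxcr4 and Ccr7) were higher in Cd28 KO in all 3. Lower in all 3 were 2 (Cx3cr1 and Ccr1). For Cxcr4 the sign in replicate 3 depends on the library scale, as given below. The share of tested genes higher in all 3 was 15.0%, and the share lower in all 3 was 13.3%. The median log2 fold change of the 5 was 0.0066, and that of all tested genes was -0.0031.

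**Figure D2:**
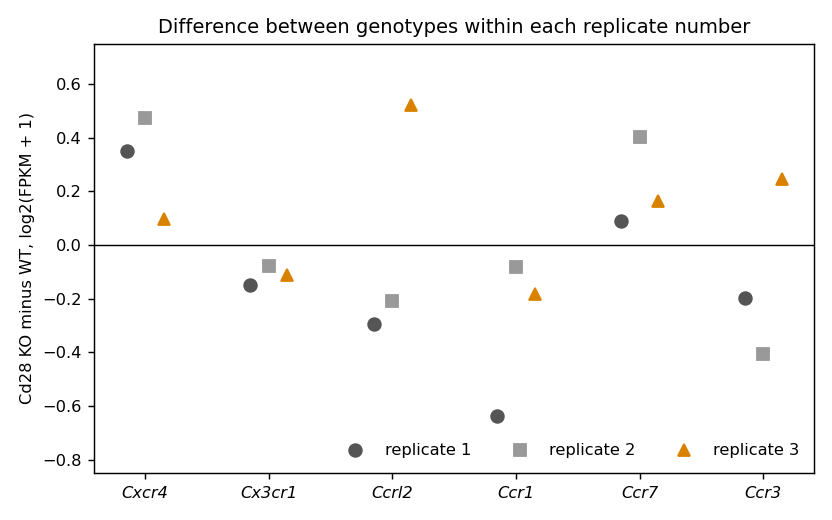
Difference between the Cd28 KO and the WT library of the same replicate number, in log2(FPKM + 1) (vertical axis), for each receptor; shapes give the replicate number. On FPKM as deposited, Cxcr4 and Ccr7 lie above 0 and Cx3cr1 and Ccr1 below 0 in all 3, while Ccrl2 and Ccr3 change side in replicate 3. The side of Cxcr4 in replicate 3 depends on the library scale.

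Cxcr4 (Entrez 12767, chromosome 1, 128588199 to 128592299, GRCm38) stood at 196, 191 and 253 FPKM in the Cd28 KO libraries and at 153, 137 and 236 FPKM in the WT libraries. Both genotypes were highest in replicate 3, and the WT replicate 3 value lay above 2 of the Cd28 KO values, so the groups overlapped. Cd28 KO averaged 213 ± 34.4 FPKM and WT 176 ± 53.3 FPKM (SD, n = 3 each), a ratio of 1.21. The ratio of Cd28 KO to WT was 1.28 in replicate 1, 1.39 in replicate 2 and 1.07 in replicate 3. The log2 fold change was 0.31 ± 0.22 (SE), with a 95% interval from -0.20 to 0.82. Its limma adjusted p was 0.9995, and 0.51 when blocked on the replicate number, where the unadjusted p was 0.017. In replicates 1 and 2 alone, the log2 fold change was 0.41, with a limma adjusted p of 0.10 and an unadjusted p of 0.0017. That fit, with 2 libraries per genotype, called 40 genes higher and 31 lower over all tested genes. With all libraries scaled to the same sum (the TPM scale), the log2 fold change was 0.25 (limma unadjusted p = 0.29). The log2 fold change was 0.54 without WT replicate 3, while it was 0.18 when Cd28 KO replicate 3 was left out and 0.15 when WT replicate 2 was; Cxcr4 was not called in any of these fits. An exact two-sided permutation test on FPKM gave p = 0.4, where the smallest p that 3 against 3 allows is 0.1.

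The receptor lies on the chromosome of Cd28, 67.8 Mb from it. With the block, limma called 18 genes over all tested genes, 10 of them on chromosome 1, between 43445483 and 131715443. Cxcr4 lies between these limits, which were set by the calls themselves, so this position is no result about Cxcr4. Its nearest tested genes on the lower-coordinate side had lower means in Cd28 KO. Dars, an aminoacyl-tRNA synthetase, stood at 26.2, 22.7 and 23.4 FPKM in Cd28 KO and 28.4, 29.4 and 29.5 FPKM in WT. Mcm6, a subunit of the replicative helicase, stood at 35.2, 35.8 and 37.4 FPKM in Cd28 KO and 51.9, 55.3 and 56.4 FPKM in WT. Both were lower in every Cd28 KO library without being called (limma adjusted p = 0.9995 for Dars and 0.32 for Mcm6, and 0.55 and 0.051 with the block). Ubxn4, the next, averaged 22.9 ± 0.324 FPKM in Cd28 KO and 24.1 ± 1.42 FPKM in WT (SD, n = 3 each). On the other side the nearest tested genes, Pfkfb2, Il10 and Mapkapk2, lay 2101 kb or more away and overlapped between the groups. Within 5 Mb of Cxcr4, 34 other genes were tested, of which 15 were on the positive side, and their median log2 fold change was -0.04. Of these, limma called Ctse without the block (log2 fold change 4.64) and both Ctse and Rab7b with it (-1.49 for Rab7b), genes named here after their values were seen. All Cd28 KO values lay above all WT values for 2 of the 34 and below for 7, against 3.84% and 2.87% of all tested genes, and the calls with the block compare with 0.138% higher and 0.0393% lower over all tested genes.

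**Figure D3:**
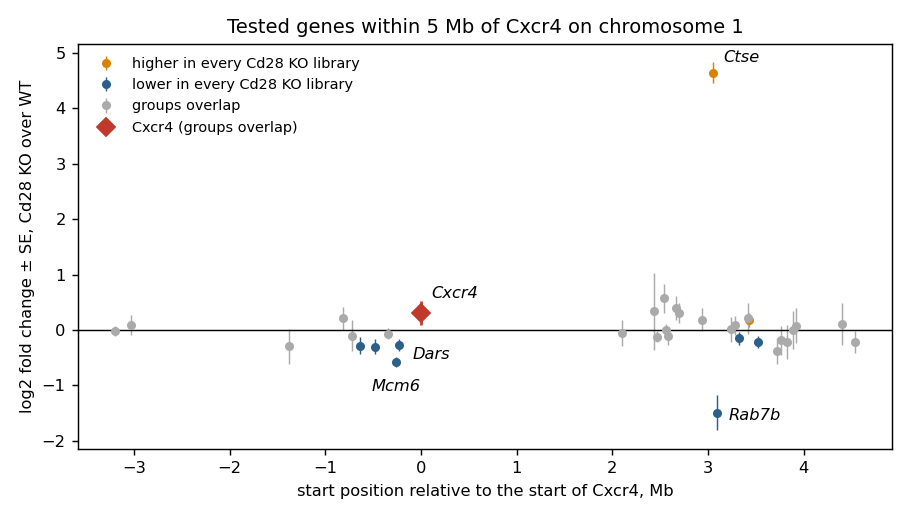
Log2 fold change of Cd28 KO over WT ± SE (vertical axis) of the tested genes within 5 Mb of Cxcr4, by the distance of their start from that of Cxcr4 in Mb (horizontal axis). Colours mark genes whose 3 Cd28 KO values lie all above (2 of 34 genes, against 3.84% of all tested genes) or all below (7 of 34, against 2.87%) the 3 WT values; Cxcr4, at 0.31, overlaps between the groups, while Mcm6 lies at -0.58.

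Cx3cr1 (Entrez 13051, chromosome 9, 120048683 to 120068296) varied least. It stood at 38.7, 42.9 and 43.6 FPKM in the Cd28 KO libraries and at 43.0, 45.4 and 47.2 FPKM in the WT libraries. The Cd28 KO values were lower in each replicate number, at 0.900, 0.946 and 0.925 of WT, and the highest of them lay above the lowest WT value. Cd28 KO averaged 41.7 ± 2.64 FPKM and WT 45.2 ± 2.07 FPKM (SD, n = 3 each). The log2 fold change was -0.11 ± 0.10 (SE), and its 95% interval corresponds to a ratio of 0.785 to 1.09 on the FPKM + 1 scale. The limma adjusted p was 0.9995 without and 0.84 with the block, and the exact two-sided permutation p was 0.2. Unlike Ccrl2, Cx3cr1 had nearly the same level in replicate 3 as in the mean of replicates 1 and 2, at a ratio of 1.07 in both genotypes. The nearest tested gene on its lower-coordinate side, Csrnp1, did not share this evenness (2.83, 3.22 and 31.7 FPKM in Cd28 KO and 4.05, 4.71 and 26.6 FPKM in WT).

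Ccrl2 (Entrez 54199, chromosome 9, 111054834 to 111057518) differed most between replicate numbers, and its genotype differences had opposite signs across them. It stood at 5.85, 7.47 and 66.2 FPKM in the Cd28 KO libraries and at 7.40, 8.79 and 45.8 FPKM in the WT libraries. Replicate 3 was high in both genotypes, 9.94 times the mean of replicates 1 and 2 in Cd28 KO and 5.65 times that mean in WT. By the log2 difference between replicate 3 and the mean of replicates 1 and 2, Ccrl2 ranked 27 from the top of the 10172 tested genes in Cd28 KO and 62 in WT. The other tested members had smaller differences, above those of 72.9% to 93.8% of genes in Cd28 KO and 68.0% to 93.6% in WT. The genotype ratio was 0.790 in replicate 1, 0.850 in replicate 2 and 1.45 in replicate 3, so its direction was not shared. The differences largely cancelled in the mean of log2(FPKM + 1), while the ratio of the FPKM means was 1.28. With this spread, Cd28 KO averaged 26.5 ± 34.4 FPKM and WT 20.7 ± 21.8 FPKM (SD, n = 3 each). The log2 fold change was 0.0066 ± 0.99 (SE), a 95% interval from -2.32 to 2.33, a limma adjusted p of 0.9995 and an exact two-sided permutation p of 0.9. With the block the SE was 0.16 and the limma adjusted p 0.995. In replicates 1 and 2 alone the log2 fold change was -0.25, with a limma adjusted p of 0.49.

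The tested genes whose centred log2(FPKM + 1) values over the 6 libraries lay closest to those of Ccrl2 were Osm, Csrnp1 and Rab20. Their root mean square differences from Ccrl2 were 0.11, 0.12 and 0.14, against a median of 1.37 over all tested genes. Osm, the cytokine oncostatin M, stood at 3.20, 3.47 and 32.3 FPKM in Cd28 KO and 3.91, 4.63 and 27.3 FPKM in WT. Rab20, a small GTPase, stood at 5.45, 6.96 and 52.2 FPKM in Cd28 KO and 6.95, 6.72 and 46.7 FPKM in WT. The 6 points share the contrast of replicate 3 with the rest, so the likeness describes that contrast.

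**Figure D4:**
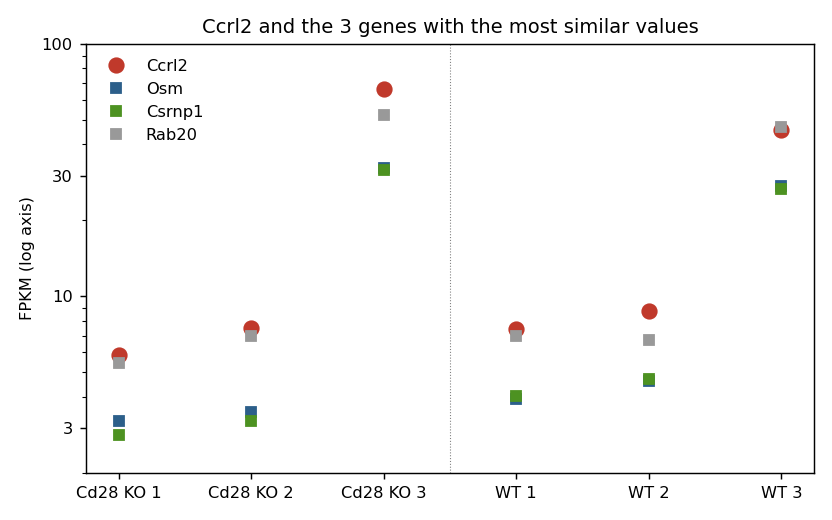
FPKM on a log axis (vertical) of Ccrl2, Osm, Csrnp1 and Rab20 in each of the 6 libraries (horizontal). All 4 genes are high in replicate 3 of both genotypes, where Ccrl2 stands at 66.2 FPKM in Cd28 KO and 45.8 FPKM in WT.

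The promoter windows of Ccrl2 and Cxcr4 are shown for the receptor that varied most between libraries and for the most abundant one. Each runs from 250 bases before to 50 bases after an annotated start, from NCBI RefSeq (GRCm38.p6), where 5 of the 6 members, all but Ccr7, had an entry. Both lie on the minus strand, Ccrl2 at chr9:111057469-111057768 and Cxcr4 at chr1:128592250-128592549. Capitals mark matches to GGGANNNNCC, a form of the NF-kB motif, or to TATAAA, the core of the TATA box, searched on both strands.
Ccrl2: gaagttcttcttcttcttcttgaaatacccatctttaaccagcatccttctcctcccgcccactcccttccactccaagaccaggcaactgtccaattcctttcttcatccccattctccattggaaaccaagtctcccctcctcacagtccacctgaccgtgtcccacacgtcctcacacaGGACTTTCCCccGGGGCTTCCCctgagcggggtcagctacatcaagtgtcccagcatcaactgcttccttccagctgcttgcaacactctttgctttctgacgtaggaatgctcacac
Cxcr4: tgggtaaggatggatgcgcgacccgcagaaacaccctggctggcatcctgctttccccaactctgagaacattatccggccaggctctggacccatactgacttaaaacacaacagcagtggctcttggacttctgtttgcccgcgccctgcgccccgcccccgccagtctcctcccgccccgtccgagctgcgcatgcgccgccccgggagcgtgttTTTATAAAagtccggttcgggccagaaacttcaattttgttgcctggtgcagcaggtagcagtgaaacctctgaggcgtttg
The Ccrl2 window held the NF-kB letters at bases 183 to 192 and 195 to 204, counted from 1 at the 5′ end, both on the opposite strand, and no TATAAA. The other 2 annotated Ccrl2 windows, which overlap this one, held neither motif. The Cxcr4 window held TATAAA at bases 221 to 226, overlapped by a match on the opposite strand at bases 219 to 224, and no NF-kB match. Of 32851 promoter windows of this length, 20.7% held the NF-kB letters and 13.6% held TATAAA. Among the other members the NF-kB letters occurred in the windows of Ccr1 and Ccr3 but not of Cx3cr1. Such matches describe the letters and were not tested for binding.

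Ccr1, Ccr7 and Ccr3 had levels under 3 FPKM in every library. Ccr1 (Entrez 12768, chromosome 9, 123962126 to 123968692) stood at 1.05, 2.09 and 2.28 FPKM in the Cd28 KO libraries and at 2.19, 2.27 and 2.72 FPKM in the WT libraries. Replicate 1 of Cd28 KO was the lowest of the 6, and the other Cd28 KO values lay close to those of WT. Cd28 KO averaged 1.81 ± 0.662 FPKM and WT 2.39 ± 0.286 FPKM (SD, n = 3 each). The log2 fold change of -0.30 ± 0.21 (SE) had a limma adjusted p of 0.9995 without and 0.70 with the block, and an exact two-sided permutation p of 0.3. It was -0.09 without Cd28 KO replicate 1.

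Ccr7 (Entrez 12775, chromosome 11, 99144199 to 99155077) stood at 1.52, 1.46 and 2.60 FPKM in the Cd28 KO libraries and at 1.37, 0.86 and 2.21 FPKM in the WT libraries. It was highest in replicate 3 of both genotypes, and the groups overlapped. Cd28 KO averaged 1.86 ± 0.642 FPKM and WT 1.48 ± 0.682 FPKM (SD, n = 3 each). The log2 fold change of 0.22 ± 0.25 (SE) had a limma adjusted p of 0.9995 without and 0.78 with the block, and an exact two-sided permutation p of 0.5. It was 0.04 with Cd28 KO replicate 3 left out, 0.03 with WT replicate 2 left out and 0.42 with WT replicate 3 left out. Fscn1, which like Ccr7 marks mature dendritic cells, stood at 0.69, 1.13 and 1.41 FPKM in Cd28 KO and at 1.57, 0.79 and 2.51 FPKM in WT. The part of dendritic cells in the Ccr7 values was not tested.

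Ccr3 (Entrez 12771, chromosome 9, 124017825 to 124031692) stood at 0.16, 0.29 and 0.59 FPKM in the Cd28 KO libraries and at 0.33, 0.71 and 0.34 FPKM in the WT libraries. It was listed in every library, never reached 1 FPKM, and the groups overlapped with no shared order of replicates. An exact two-sided permutation test gave p = 0.5. Siglecf, which eosinophils and some macrophages express, stood at 1.34, 1.66 and 2.30 FPKM in Cd28 KO and at 2.24, 2.80 and 2.22 FPKM in WT. The part of eosinophils in the Ccr3 values was not tested.

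Members of a gene family can share sequence, and the submitters' processing shares reads between similar transcripts by estimation. In the GENCODE M21 transcripts, none of the 50-base words of Ccr1, Ccr3, Ccr7, Ccrl2 or Cxcr4 occurred in a transcript of another gene. For Cx3cr1 it was 12 of 4453 words (0.269%).

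Ccr1 and Ccr3 lie beside Ccr2 on chromosome 9, and the levels across this stretch were unequal. Ccr2, 139.8 kb from Ccr1, stood at 28.3, 29.7 and 20.1 FPKM in Cd28 KO and 20.9, 21.2 and 21.8 FPKM in WT. The nearest tested gene on the other side, Fyco1, averaged 2.94 ± 1.19 FPKM in Cd28 KO and 2.47 ± 0.365 FPKM in WT (SD, n = 3 each). Next to Ccr7, Igfbp4 was higher in every Cd28 KO library (211 ± 9.24 FPKM in Cd28 KO, 169 ± 10.7 FPKM in WT, SD, n = 3 each) without being called (limma adjusted p = 0.9995, and 0.43 with the block). Of all tested genes, 3.84% were likewise higher without overlap. The other tested neighbours of the chromosome 9 and 11 members, Slc25a38, Smarce1, Als2cl and Lrrfip2, overlapped between the groups.

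Among the other receptors for chemoattractants, 23 of 24 genes were listed and 7 were tested, of which 0 were called in either fit. Their median log2 fold change was -0.01, with 3 positive and 4 negative. The most abundant were C5ar1 and C3ar1, receptors for complement fragments. C5ar1 averaged 236 ± 18.5 FPKM in Cd28 KO and 240 ± 34.9 FPKM in WT, and C3ar1 averaged 234 ± 31.0 FPKM in Cd28 KO and 249 ± 32.2 FPKM in WT (SD, n = 3 each). Cxcr4 lay below the lowest value of either gene in replicates 1 and 2 of both genotypes. In replicate 3 it lay above both, at 253 FPKM in Cd28 KO and 236 FPKM in WT. There C5ar1 stood at 215 FPKM in Cd28 KO and 200 FPKM in WT, and C3ar1 at 198 and 212 FPKM.

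**Figure D5:**
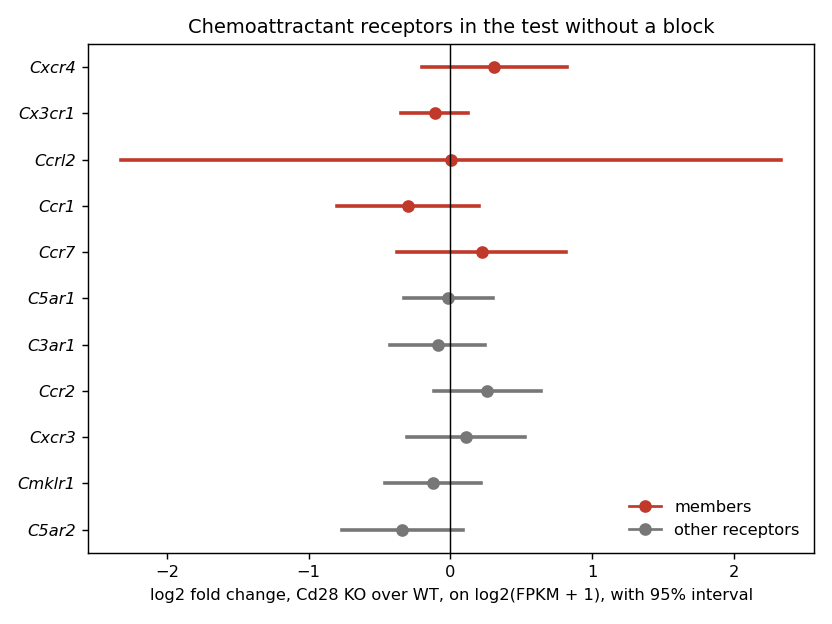
Log2 fold change of Cd28 KO over WT on log2(FPKM + 1), with its 95% interval (horizontal axis), for the 5 tested members (red) and 6 of the 7 other tested receptors (grey). Every interval includes 0, and that of Ccrl2, from -2.32 to 2.33, is the widest of these 11 genes.

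Transcripts of several ligands were listed in the same libraries. Of 17 ligand genes 15 were listed in at least 1 library and 10 tested, with 0 called in either fit, 0 without overlap, 7 positive and 3 negative differences and a median log2 of 0.25. In replicates 1 and 2 alone the median was 0.10. Ccl9, Ccl3, Mif and Ccl6 were the most abundant. Ccl9, a ligand of Ccr1, stood at 378, 306 and 379 FPKM in Cd28 KO and 314, 307 and 322 FPKM in WT. Ccl3, also a ligand of Ccr1, stood at 198, 201 and 135 FPKM in Cd28 KO and 201, 186 and 83.2 FPKM in WT, lowest in replicate 3 of both genotypes. Mif, which also binds Cxcr4, averaged 177 ± 40.6 FPKM in Cd28 KO and 181 ± 27.2 FPKM in WT (SD, n = 3 each). Of the other ligands, Ccl4, Ccl5 and Ccl2 also stood above 10 FPKM in every library, while several were low; these genes are named after their values were seen. Cxcl12 stood between 0.06 and 0.25 FPKM in Cd28 KO and between 0.03 and 0.21 FPKM in WT, Rarres2 reached no more than 0.49 FPKM, and Ccl19 was listed in 1 library at 0.16 FPKM. Cx3cl1 stood at 0.55, 0.92 and 2.80 FPKM in Cd28 KO and at 0.85, 1.07 and 3.82 FPKM in WT, highest in replicate 3 as Ccrl2 was.

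Genes that carry the signal from these receptors had 20 tested members and 0 calls in either fit. Their median log2 was -0.04 with 14 negative and 6 positive. On the TPM scale or with quantile normalization all 20 were negative, and in replicates 1 and 2 alone 9 were. The median of all tested genes also moved, to -0.06 on the TPM scale and -0.0090 with quantile normalization, from -0.0031. Gnai2, the main inhibitory G protein alpha subunit of leukocytes, stood at 613, 627 and 637 FPKM in Cd28 KO and 674, 671 and 649 FPKM in WT, lower in every Cd28 KO library (limma adjusted p = 0.9995, and 0.92 with the block). Itgb2, the beta subunit of leukocyte integrins, stood at 224, 238 and 235 FPKM in Cd28 KO and 269, 337 and 256 FPKM in WT, also lower without overlap (limma adjusted p = 0.9995, and 0.55 with the block). These were 2 of the 20, with 0 higher without overlap, against 2.87% lower and 3.84% higher over all tested genes. The small GTPases Cdc42, Rhoa and Rac1 overlapped between the groups, Rac1 at 282 ± 7.39 FPKM in Cd28 KO and 279 ± 0.615 FPKM in WT (SD, n = 3 each).

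Genes that switch the receptors off, the receptor kinases, arrestins and RGS proteins, had 13 tested members and 0 calls in either fit. Of these 12 were positive, with a median log2 of 0.10, and 8 were positive on the TPM scale, where the median was 0.04. Rgs10, an RGS protein abundant in macrophages and microglia, was the 1 of the 13 without overlap. It stood at 416, 319 and 365 FPKM in Cd28 KO and 305, 258 and 292 FPKM in WT. Its log2 difference of 0.36 ± 0.13 (SE) had a limma adjusted p of 0.9995 without and 0.39 with the block. Over all tested genes, 3.84% were higher in Cd28 KO without overlap and 2.87% lower. Rgs1 stood at 118, 93.7 and 185 FPKM in Cd28 KO and 103, 104 and 154 FPKM in WT, highest in replicate 3 of both genotypes, as Cxcr4 was. The receptor kinase Grk2 averaged 107 ± 9.68 FPKM in Cd28 KO and 106 ± 6.32 FPKM in WT, and the arrestin Arrb2 averaged 174 ± 3.33 FPKM in Cd28 KO and 162 ± 10.3 FPKM in WT (SD, n = 3 each).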

How the data were processed

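RNA sequencing measured 6 libraries of mouse bone marrow-derived macrophages, grouped by their titles. The deposited values are FPKM, 1 per gene and library, made with Bowtie and RSEM on GRCm38 per the submitters' processing notes; their versions were not given in the sources used here. Genes missing from a library's file were set to 0. Of 14574 Entrez identifiers, 14551 matched NCBI RefSeq (GRCm38.p6), the source of symbols and coordinates. FPKM hides depth, so no counting interval is given.

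Differences were tested with limma 3.58.1 in R 4.3.3 (trend, two-sided) on log2(FPKM + 1), over the 10172 genes that averaged 1 FPKM or more, after the fit was tested on simulated data. There it recovered 2% of 50 genes changed 1.5-fold and 22% of 50 changed 2-fold. With the replicate block it recovered 14% and 54%. A missing call therefore does not show that a receptor was unchanged. Single genes also had an exact permutation test over the 20 ways to divide the libraries 3 against 3. Deviations from the group means of same-numbered libraries correlated at 0.752, 0.505 and 0.783 across genes, all above 0.1, so a second fit blocked on that number is given beside the first. Replicates 1 and 2 were not told apart by this check, since Cd28 KO replicate 2 correlated more with WT replicate 1 (0.535) than with WT replicate 2. Alternatives were the pseudocount, filter, scaling, a term for replicate 3, replicates 1 and 2 alone and each library left out.

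The members, gene lists, named genes and motifs were chosen with earlier results of these data known. The naming rule took all members, the 4 most abundant and the called genes of each list, the nearest tested genes and the 3 most alike genes of members spanning at least 1 on the log2 scale; 1 gene of the receptor list is not reported here by name. Not every marker gene the rule took is named, and Flt3, Zbtb46, Epx, Mertk and Itgb2 were named outside it after their values were seen. Tables and plots were made in Python 3.11.15 using pandas 2.3.3 and Matplotlib 3.10.9.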

Additional observations from a re-analysis of the deposited data

How the results depend on the processing

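None of the 5 tested receptors was called by limma under any alternative, with adjusted p values from 0.10 to 1 over all of them. Cxcr4, Cx3cr1, Ccr1 and Ccr7 kept their direction under every alternative run. Their log2 fold changes ranged from 0.15 to 0.54, from -0.17 to -0.06, from -0.45 to -0.09 and from 0.03 to 0.42. The replicate block, the term for replicate 3 and the filters leave the log2 fold change itself the same in this balanced design. These alternatives therefore could not change a direction. For Ccrl2 the sign was negative with a pseudocount of 0.1 (-0.011) or 0.5 (-0.0028), on the TPM scale (-0.062), with quantile normalization (-0.036), both also with the replicate block, and in replicates 1 and 2 alone (-0.25). Leaving out a library gave -1.04 to 0.80. Ccr3, under the 1 FPKM minimum of the limma test, had a log2 difference of -0.12 (adjusted p = 1 when limma was run without the filter), which was -0.38 with a pseudocount of 0.1 and 0.000011 without WT replicate 2. The replicate block changed no call of a member. No value was computed for the members below a minimum mean of 5 FPKM, nor for Ccr3 with the block, the term for replicate 3 or quantile normalization.

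Over all genes, limma called 2 higher and 0 lower without a block, and 2 higher and 0 lower without each library in turn. It called 14 higher and 4 lower with the replicate block, 20 and 8 with a term for replicate 3, 40 and 31 in replicates 1 and 2 alone, and 2 and 3 without the filter. With median centring, quantile normalization or the TPM scale added to the block, alternatives chosen after seeing the data, it called 10 and 3, 12 and 4, and 14 and 6. The TPM scale shifted the median log2 fold change of all genes to -0.06. The cause of these differences was not tested. Values near 1 FPKM, as for Ccr1, Ccr3 and Ccr7, rest on few fragments of unknown number.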
